A study of Mus musculus with 36 samples.

Results

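The peaks described here are regions of open chromatin in naive CD4 T cells that held few reads in activated conventional T cells (Tconv). They were selected on the 3 HP1α WT naive and 3 HP1α WT Tconv libraries, as the peaks whose mean log2 CPM (CPM, read counts scaled to the library total in peaks, with a prior count of 2) was more than 3 lower in Tconv. Of 71509 peaks, 260 met this rule. The values of these 6 libraries are therefore a description, and the tests below compare groups of other libraries. The HP1α KO test comes from a fit of 15 libraries that holds these 6, with which it shares its filter and its estimate of the spread.

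ATAC-seq, in which a transposase cuts accessible DNA, was applied to mouse CD4 T cells with or without HP1α or HP1γ, proteins that bind methylated histone H3 in closed chromatin. Mice lacking HP1α carried a floxed Hp1a allele deleted in the germline by CMV-cre, and mice lacking HP1γ carried floxed Hp1g alleles deleted by Cd4-cre, which acts from the thymus on. HP1γ WT animals carried the floxed alleles without the transgene. WT animals were sex-matched littermates, 6 to 12 weeks old, and the strains were a mix of 129/Sv and C57BL/6. Naive cells were splenic CD4+CD62L+CD44-/low cells taken by magnetic negative selection. Tconv were Vβ6+ CD4 T cells sorted from the spleen 3 weeks after transfer into lethally irradiated hosts, either C57BL/6J or CD45.1+ B6, that also received C57BL/6J and B6D2F1 bone marrow, and the Treg-exposed groups had ex vivo expanded regulatory T cells (Treg) of Foxp3-Thy1.1 mice as well. The Vβ6 sort was applied to the transferred and not to the naive cells. Each of the 12 groups of locus, genotype and condition had 3 libraries. Nothing in the labels says whether libraries were separate animals, so p-values measure the spread between these libraries.

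The libraries held 1.49 to 96.8 M reads in peaks, and the HP1γ libraries 19.4 to 90.3 M. The 3 HP1α Treg-exposed libraries that the study left out held 3.2 to 7.12 M and are in no test. Of the libraries behind the rule, HP1α WT Tconv replicate 3 held 6.20 M reads and had 76 members at 0 reads, against 4 and 11 in the other two. TSS (transcription start site) peaks of CD4 T cell markers (7 of 10 listed genes had one) held a summed 669 to 711 CPM in naive and 773 to 884 CPM in Tconv HP1γ WT libraries. Peaks at the start of Cbx3, which encodes HP1γ, held 157 to 192 CPM in Tconv of either HP1γ genotype, so this promoter peak does not check the deletion. Reads of the X chromosome made 1.80 to 1.88% of naive and 1.55 to 1.72% of transferred HP1γ libraries.

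Naive T cells are kept quiescent by transcription factors such as TCF-1, LEF1, FOXP1 and ETS1, and activation replaces much of the enhancer landscape they hold open with one bound by AP-1 factors. The T cell receptor α and δ genes share a locus, with the δ segments nested between the α variable (V) and joining (J) segments. Joining a V to a J segment removes the DNA in between as a circle that is not copied when a cell divides. Read counts over such DNA therefore depend both on how many copies the cells hold and on how accessible it is, and these cannot be told apart here.

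Sequences of 9 members follow, chosen because they are the T cell receptor, transcription factor or called peaks that the results return to, or hold the motifs compared below. Each is the central 200 bases on the plus strand of GRCm39, with matches on either strand to the TCF and LEF motif ATCAAAG, the RUNX motif TGTGGT and the ETS motif CAGGAAG in capitals.
Between Trdc and Traj61, chr14:54390306-54390505: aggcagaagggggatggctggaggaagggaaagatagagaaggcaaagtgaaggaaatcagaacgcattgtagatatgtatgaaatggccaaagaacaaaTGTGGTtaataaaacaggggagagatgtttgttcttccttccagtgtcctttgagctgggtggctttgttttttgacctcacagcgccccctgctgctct
Sox4 distal, chr13:29010331-29010530: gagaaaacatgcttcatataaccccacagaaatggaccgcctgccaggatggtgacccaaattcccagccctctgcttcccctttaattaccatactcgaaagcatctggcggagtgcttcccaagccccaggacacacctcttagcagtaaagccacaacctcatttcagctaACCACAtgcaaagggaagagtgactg
Foxp1 intron, chr6:99299626-99299825: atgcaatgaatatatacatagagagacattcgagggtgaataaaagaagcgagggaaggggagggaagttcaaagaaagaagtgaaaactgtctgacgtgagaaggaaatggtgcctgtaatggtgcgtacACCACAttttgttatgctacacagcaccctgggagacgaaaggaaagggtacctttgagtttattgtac
Bcl9 intron, chr3:97201856-97202055: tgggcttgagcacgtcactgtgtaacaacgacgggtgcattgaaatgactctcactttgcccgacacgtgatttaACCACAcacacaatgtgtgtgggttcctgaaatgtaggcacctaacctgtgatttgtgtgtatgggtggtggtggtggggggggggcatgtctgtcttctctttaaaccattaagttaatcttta
Thbs1 distal, chr2:117838581-117838780: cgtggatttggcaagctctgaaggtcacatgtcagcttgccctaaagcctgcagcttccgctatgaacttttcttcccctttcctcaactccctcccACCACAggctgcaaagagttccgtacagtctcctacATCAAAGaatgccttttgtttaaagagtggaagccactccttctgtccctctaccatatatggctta
Etv5 distal, chr16:22345186-22345385: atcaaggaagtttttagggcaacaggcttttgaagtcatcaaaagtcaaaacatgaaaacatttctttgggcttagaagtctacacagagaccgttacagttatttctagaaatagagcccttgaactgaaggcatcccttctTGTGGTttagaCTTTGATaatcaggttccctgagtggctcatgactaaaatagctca
Kcnh8 distal, chr17:52813976-52814175: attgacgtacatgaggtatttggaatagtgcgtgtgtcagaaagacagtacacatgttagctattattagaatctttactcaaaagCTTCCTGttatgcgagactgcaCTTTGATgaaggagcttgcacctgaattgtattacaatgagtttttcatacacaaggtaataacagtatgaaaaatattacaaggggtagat
Pakap intron, chr4:57640391-57640590: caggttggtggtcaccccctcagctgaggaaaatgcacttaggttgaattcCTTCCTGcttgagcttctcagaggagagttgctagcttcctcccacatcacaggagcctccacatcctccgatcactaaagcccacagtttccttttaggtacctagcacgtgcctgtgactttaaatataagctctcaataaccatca
Zfp704 intron, chr3:9612436-9612635: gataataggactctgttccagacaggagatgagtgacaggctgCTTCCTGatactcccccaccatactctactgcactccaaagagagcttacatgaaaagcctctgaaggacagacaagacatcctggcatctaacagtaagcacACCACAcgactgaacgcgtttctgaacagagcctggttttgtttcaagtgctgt

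Members lay farther from transcription starts than other peaks. Of the 260, 140 lay in introns, 59 between genes, 13 in exons and 48 within 1 kb of a TSS of any gene type. Among all peaks 30.1% were at a TSS, against 18.5% of members and 12.3% of the 228 members outside the Tcra and Tcrd locus. Of the 6651 peaks more than 3 higher in HP1α WT Tconv, 15.6% were at a TSS. A low share by any gene type was therefore not particular to members. By protein-coding genes alone, 14 members (5.38%) were at a TSS, against 21% of all peaks. The median distance to the nearest protein-coding TSS was 39.9 kb for members and 8.79 kb for all peaks. It was 31.1 kb for members outside the Tcra and Tcrd locus and 15.6 kb for the peaks more than 3 higher in Tconv. The median GC content of members was 44.9%, against 48% over all peaks, and their median width was 835 bases, against 750 bases. Chromosome 14 held 40 members and the X chromosome 27, or 1.77% of its 1522 peaks, against 0.364% of all peaks. The 2 members just inside the rule lay near Creb5 (difference -3.0049) and Fthl17a (-3.0018), and the 2 peaks just outside near Gpr141 (-2.9951) and Arid1b (-2.9948).

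In 32 cases the member lay in the Tcra and Tcrd locus (chromosome 14, 52665385 to 54461663), which held 113 peaks in all. The 10 members with the lowest differences were all there, from -5.97 at a peak in Trdc, the constant gene of the δ chain, to -4.77 beside Trdv1. They lay near Trdc (2 peaks), Trav21-dv12, Trdv2-1, Trdv2-2, Trdv3, Trdv4 (2 peaks), Trdv1 and between Trdc and Traj61. The Trdc peak (chr14:54384501-54385760) had 670, 735 and 857 reads in the naive HP1γ WT libraries and 17, 10 and 6 in HP1γ WT Tconv. All 3 Tconv libraries were far below all 3 naive libraries, with a log2 fold change of -5.63 ± 0.31 (SE, n = 3 and 3, edgeR adjusted p = 3.9e-12). In HP1γ KO Tconv the counts were 2, 18 and 68, which spread more widely than in WT, and in naive KO cells 354, 381 and 841.

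The differences were not even along the locus. The 4 peaks between the Trdd and the Traj segments, near Trdj2, at Trdc (2 peaks) and between Trdc and Traj61, were all members, with differences of -5.97 to -4.06. The 7 peaks over the Traj segments and Trac, the constant gene of the α chain, held no member, and their differences ran from -1.34 to 0.07. Among the 102 peaks from Trav1 to just before Trdd1, 28 were members. In 100 kb steps from Trac, the median difference was -1.04 at 0 to 100 kb (11 peaks), which spans Traj and the end of the δ segments, -4.75 at 100 to 200 kb (4 peaks), -5.02 at 200 to 300 kb (5 peaks), -3.64 at 300 to 400 kb (7 peaks), -2.79 at 400 to 500 kb (16 peaks), -2.22 at 500 to 600 kb (14 peaks), -1.86 at 600 to 700 kb (12 peaks) and -1.02 at 700 to 800 kb (9 peaks). Farther out it was -1.70 at 800 to 900 kb (9 peaks), -1.32 at 1000 to 1100 kb (5 peaks) and -1.13 in the 100 kb beyond (12 peaks), with no member. Away from this stretch, 2 members lay at the far end beside Trav1, the most distant V segment. The Trav1 peak (chr14:52664831-52665750) had log2 CPM of 4.4, 4.56 and 4.4 in naive and -0.80, -0.15 and -0.51 in Tconv HP1γ WT libraries, so the groups were far apart (log2 fold change -4.93 ± 0.20, edgeR adjusted p = 1.2e-12). In the HP1γ WT libraries, which did not choose the peaks, the same stretches had median log2 fold changes of -5.06 between Trdd and Traj, -0.39 over Traj and Trac and -1.80 from Trav1 to just before Trdd1. Many Trav segments have near-identical copies, and the study kept only alignments above a minimum quality. Reads that fit several copies could be lost to this filter, so single V peaks are uncertain.

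**Figure D1:**
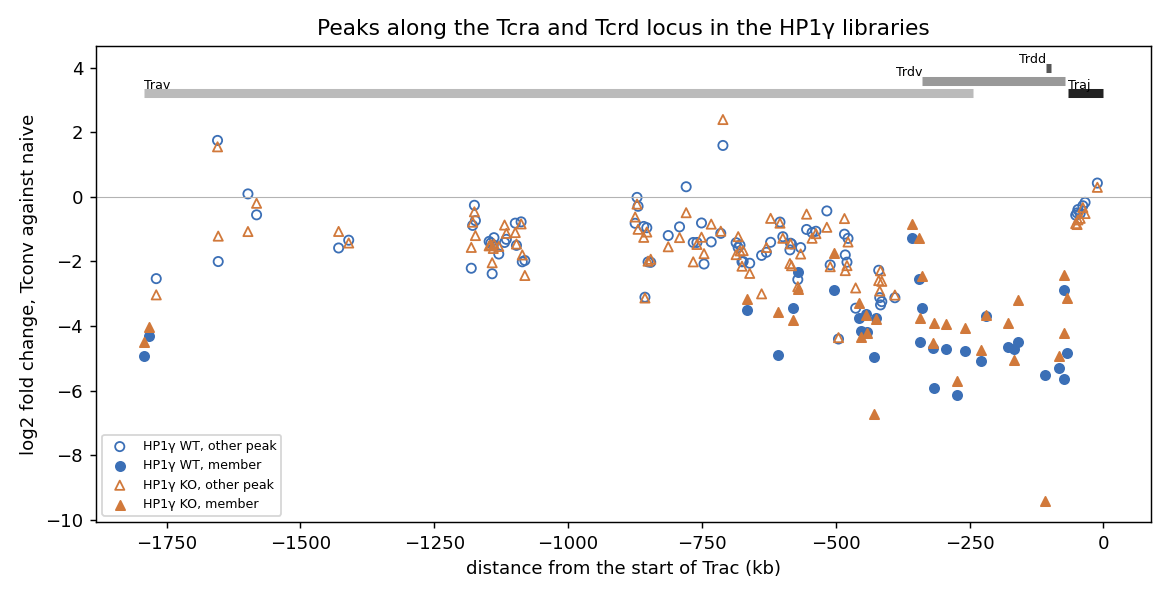
Log2 fold change of Tconv against naive cells in the HP1γ libraries for the 113 peaks of the Tcra and Tcrd locus, by distance in kb from the start of Trac, with WT as circles, KO as triangles, members filled and bars above for the span of each segment class. Of the 32 members, 2 lie beside Trav1 and the others between -667 and -67.6 kb from Trac, and the peaks over Traj lie between -0.57 and 0.43 in WT. The lowest KO point, beside Trdd1, is a peak with 0 reads in all 3 KO Tconv libraries, so its fitted value is no measure of size.

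The other T cell receptor loci held no member. Tcrb had 48 peaks with differences from -2.87 to 3.62 and a median of 0.28, and Tcrg had 10 peaks with a median of 2.41.

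Outside the receptor locus, 228 members had 184 different nearest protein-coding genes, and 30 of these genes had more than 1 member. Syne1, which encodes the nuclear envelope protein nesprin-1, Slc4a4, a sodium bicarbonate cotransporter, the zinc finger gene Zfp800 and Bcor, a corepressor of BCL6, had 4 members each. Adamts20, Rreb1, Kcnh8, Pakap, Ldlrad3 and Zfp704 had 3 each. Over all peaks of these genes in HP1γ WT cells, 31 of 31 peaks of Kcnh8, a potassium channel gene, were called lower in Tconv, as were 15 of 15 of Slc4a4, 22 of 23 of Pakap, 18 of 20 of Zfp704, 16 of 18 of Adamts20, 14 of 16 of Ldlrad3, 27 of 35 of Rreb1, 17 of 23 of Syne1, 8 of 11 of Zfp800 and 19 of 40 of Bcor. Of the 10 genes, Pakap and Adamts20 had 1 peak each and Rreb1 2 peaks called higher. Over all peaks 22% were called lower and 24.5% higher, and these genes were chosen for members, which the counts include. Each peak was given to the gene with the nearest start, and whether it acts on that gene was not tested. Kcnh8 members lay 44.8 to 290 kb from its start, Slc4a4 members 62.2 to 146 kb and Adamts20 members 127 to 216 kb. Those of Rreb1, Pakap and Zfp704 lay within 52.6 kb.

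Of 22 listed transcription factors of naive T cells, 4 had a member, with 7 of their list's 945 peaks. That was 0.741% of the list's peaks, against 0.364% of all peaks. None of these 7 lay at the gene's own start. The lowest was 127 kb from Sox4, an HMG-box factor of T cell development, followed by peaks 56.2 kb from Foxp1, a forkhead factor that holds T cells quiescent, 515 kb from Tox and 345 kb from Satb1, an organiser of chromatin in thymocytes. The Sox4 peak (chr13:29010091-29010770) had log2 CPM of 2.24, 1.87 and 1.9 in naive HP1γ WT, -2.56, -2.0 and -1.58 in Tconv, and 2.51, 2.24 and 2.10 in naive KO. No Tconv library reached a naive one (log2 fold change -4.19 ± 0.38 in WT, edgeR adjusted p = 1.2e-08). The Foxp1 peak (chr6:99299121-99300330) fell from 3.69, 3.73 and 3.72 to -1.55, -0.68 and -0.37 in HP1γ WT (-4.57 ± 0.26, edgeR adjusted p = 3.5e-11). The Satb1 peak (chr17:52484481-52486790) fell from 5.10, 5.14 and 5.09 to 0.48, 1.05 and 1.17 (-4.16 ± 0.20, edgeR adjusted p = 4.1e-12). The Tox peak had 77 to 136 reads in naive and 3 to 6 in Tconv HP1γ WT libraries.

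Of 28 other genes of the naive signature, 3 had members, with 6 of 395 peaks (1.52%, against 0.364% of all peaks). Atp1b1, the β subunit of the sodium pump, had 2 at its start, and Pakap, which anchors protein kinase A, had 3. The Atp1b1 start (chr1:164280711-164282020) had log2 CPM of 4.88, 4.90 and 5.01 in naive and -0.21, 0.39 and -0.33 in Tconv HP1γ WT libraries (log2 fold change -4.93 ± 0.24, edgeR adjusted p = 5.6e-12). The Pakap intron peak whose sequence is shown had 5.04, 5.08 and 5.07 against 0.37, -0.02 and 0.45 (-4.76 ± 0.20, edgeR adjusted p = 1.6e-12). The third gene was Ssbp2, a cofactor of LIM-domain complexes, with 1 intron peak (-5.31 ± 0.23, edgeR adjusted p = 2e-12). None of the lists of homing and egress (159 peaks), cytokine receptors (248), receptor signalling and costimulation (327), quiescence and growth control (211) or effector and activation genes (464) had a member, where 0.364% of all peaks were members. In the whole lists, HP1γ WT Tconv were called lower at 507 and higher at 106 of the 945 peaks of naive transcription factors, lower at 246 and higher at 22 of the 395 of other naive genes, and lower at 30 and higher at 316 of the 464 of effector genes. HP1γ WT Tconv were lower at 64 and higher at 25 of the peaks of homing and egress genes, lower at 95 and higher at 28 of those of quiescence genes, lower at 67 and higher at 65 of those of cytokine receptors, and lower at 71 and higher at 64 of those of receptor signalling. These counts stand beside the 22% lower and 24.5% higher of all peaks.

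The members were also lower in Tconv in libraries that did not choose them. In HP1γ WT cells all 260 were called lower, by edgeR's quasi-likelihood test with a Benjamini-Hochberg adjusted p under 0.05 and a log2 fold change below -1, against 22% of 71508 peaks tested, and 259 had no overlap between naive and Tconv libraries, against 38.6% of all peaks. The median log2 fold change was -4.34, with quartiles of -4.78 and -3.70, while the median of all peaks was 0.08. In HP1γ KO cells 259 of 260 were called lower, against 20.6% of all peaks, with a median of -3.77. In HP1α KO cells, fitted apart, 259 were called lower, against 19% of all peaks, also with a median of -3.77. The exceptions were a Trav20 peak in HP1γ KO (-0.83, adjusted p = 0.20) and a peak near Ltbp1 in HP1α KO (-1.41, adjusted p = 0.096), both by edgeR. The 1 member whose HP1γ WT groups overlapped was the Trav20 peak as well (-1.27, edgeR adjusted p = 0.027).

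The clearest single cases had many reads. The Bcl9 intron peak (chr3:97201281-97202630), in a gene for a coactivator of β-catenin, had log2 CPM of 5.39, 5.35 and 5.4 in naive and 0.68, 0.20 and 0.10 in Tconv HP1γ WT libraries (log2 fold change -4.98 ± 0.15, edgeR adjusted p = 1.3e-13). The start of Cnksr3, a scaffold protein gene, went from 6.41, 6.46 and 6.43 to 2.41, 1.94 and 2.36 (-4.12 ± 0.14, edgeR adjusted p = 2.5e-13). A peak 103 kb from Thbs1, the gene of thrombospondin-1, went from 5.07, 5.08 and 5.0 to 0.34, 0.07 and 0.07 (-4.85 ± 0.16, edgeR adjusted p = 2.5e-13). In HP1γ KO cells a Zfp800 intron peak was among the 3 with the smallest p, at -4.92 ± 0.18 (edgeR adjusted p = 3e-12).

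Over the HP1γ WT naive libraries the median member held 657, 732 and 859 reads, and over the WT Tconv libraries 28, 25.5 and 27. Members took 0.422 to 0.433% of all reads in naive and 0.0196 to 0.0238% in Tconv HP1γ WT libraries. The precision of any change among Tconv groups is limited by these low counts. All 7 peaks of the 2 CD8 T cell marker genes were called lower in HP1γ WT Tconv too, and their 1 TSS peak held 29.2 to 32.6 CPM in naive and 2.38 to 4.0 CPM in Tconv. B cell TSS peaks (5 of 12 genes) held 24.9 to 27 and 30.3 to 35.1 CPM, and those of dendritic cells (4 of 6 genes) 13.7 to 15.6 and 45.9 to 50.7 CPM. Monocyte and macrophage peaks (4 of 8 genes) held 37.4 to 38.1 and 36.3 to 39.5 CPM, erythroid peaks (4 of 5) 40.7 to 41.6 and 22.6 to 29.8 CPM, and the 1 neutrophil peak 0.42 to 0.67 and 15.7 to 21.1 CPM. The 1 NK cell peak held 0.10 to 0.23 and 6.33 to 11.8 CPM, and Treg peaks (4 of 4 genes) 220 to 230 and 209 to 222 CPM. Treg-exposed HP1γ WT libraries held 4.03 to 6.84 CPM at the CD8 peak, above WT Tconv, while the ranges of the other lists overlapped. KO Tconv held 4.49 to 5.64 CPM there and 2.24 to 3.57 CPM at the NK cell peak, and the other ranges overlapped those of WT Tconv. With Treg the NK cell peak held 0.40 to 2.30 CPM in KO and 2.88 to 14.6 CPM in WT, and the other ranges overlapped. The part of other cells in the member values was not tested.

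**Figure D2:**
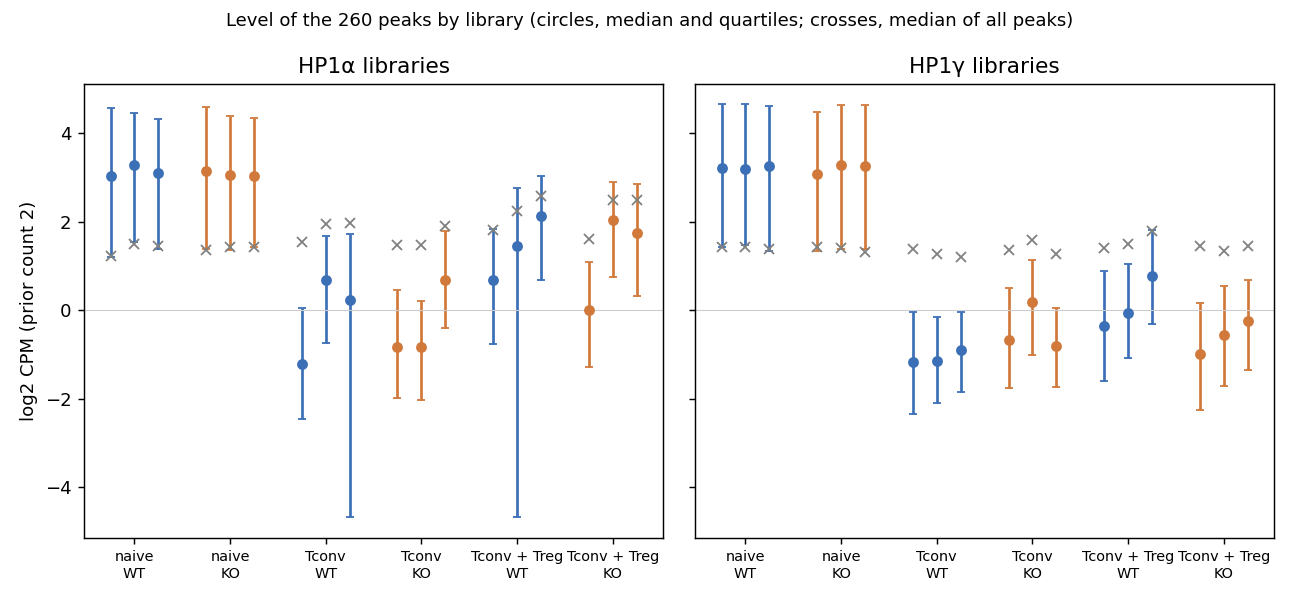
Median log2 CPM of the 260 members in each library (circles, with quartiles as bars) and median of all peaks (crosses), in 12 groups of 3 libraries, WT in blue and KO in orange. In the HP1γ libraries the naive medians lie between 3.09 and 3.28 and those of WT Tconv between -1.17 and -0.90, below the crosses, while the HP1α WT naive and Tconv libraries chose the members.

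Members had higher median levels in Treg-exposed than in other HP1γ WT Tconv, but few peaks passed the test singly. The median level over members was -1.17, -1.14 and -0.90 log2 CPM in the 3 WT Tconv libraries and -0.35, -0.06 and 0.77 in the 3 WT Treg-exposed libraries, so these library medians did not overlap. The medians over all peaks did not overlap either on this scale, at 1.22 to 1.38 and 1.42 to 1.80. Over members the median log2 fold change was 1.05, with 249 of 260 above 0, against a median of 0.03 over all peaks, and 160 members had no overlap between the groups in the higher direction, against 19.2% of all peaks. Only 2 members were called higher and 0 lower, against 0.0671% and 0.0699% of all peaks. All 260 passed the filter on low counts because the naive libraries were in the fit. With the filter and the fit on the 2 groups compared alone, 234 were tested, with a median of 1.06 and 0 calls, and 0 of 70941 peaks in all were called. With the replicate number as a block, 12 were called higher, against 0.312% of all peaks, and 6 with GC offsets as well, against 0.28%. Members outside the receptor locus had a median of 1.10 and those in it 0.51. Naive libraries of the same genotype had medians of 3.2 to 3.26.

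The 2 called peaks were those of Thbs1 and Bcl9. The Thbs1 peak had log2 CPM of 1.55, 1.63 and 2.34 with Treg against 0.34, 0.07 and 0.07 without (log2 fold change 1.49 ± 0.28, edgeR adjusted p = 0.044). The Bcl9 peak had 1.71, 1.88 and 1.92 against 0.68, 0.20 and 0.10 (1.35 ± 0.26, edgeR adjusted p = 0.044). In both peaks the groups did not overlap, which the rule for naming them required, and the naive libraries lay at 5.0 or above. Neither was called without WT Treg-exposed replicate 1 (log2 fold change 1.60 and 1.39 for Thbs1 and Bcl9) or 3 (1.36 and 1.36), or without Tconv WT replicate 1 (1.59 and 1.56) or 2 (1.44 and 1.27). The Bcl9 peak was not called with GC offsets either (1.23), where that of Thbs1 was (1.38).

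Depth moved with this result. WT Treg-exposed replicate 3 had the highest member level of the transferred and the fewest reads of all HP1γ libraries (19.4 M, against 41.4 and 51.7 M for replicates 2 and 1). Without it the median log2 fold change was 0.86, with 0 calls, and with log2 depth as a covariate 0.99, with 0 calls. The number called was also 0 without WT Treg-exposed replicate 1 and without Tconv WT replicate 1 or 2, 14 without WT Treg-exposed replicate 2 (0.496% of all peaks higher) and 10 without Tconv WT replicate 3 (0.345%), and DESeq2 called 100 members and 2.94% of all peaks higher. The fits with 0 member calls, among them that with depth, called at most 2 of all peaks higher. The weakest 10% of all peaks held 0.34, 0.42 and 0.61% of reads in WT Treg-exposed replicates 1, 2 and 3, against 0.31 to 0.34% in WT Tconv. The part of depth and of such weak signal in the result was not tested.

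In HP1γ KO cells the members' library medians were -0.66, 0.19 and -0.81 log2 CPM without and -0.98, -0.55 and -0.24 with Treg, which overlap. The median log2 fold change was -0.17, against -0.02 over all peaks, with 8 members called higher and 2 lower, against 6.1% and 2.06% of all peaks. With the filter and the fit on the 2 groups alone, 226 were tested, with a median of -0.14, and 1 was called higher, against 0.707% of all peaks, so that the Gm20696 and Etv5 peaks below were not. Those called higher included the Cnksr3 start (3.96, 3.54 and 3.82 with Treg against 2.78, 2.90 and 2.71 without, 1.03 ± 0.16, edgeR adjusted p = 0.00064), an intron peak near Gm20696 (1.17 ± 0.21, edgeR adjusted p = 0.0014) and a peak 85.6 kb from Etv5, a gene for an ETS factor (2.57, 1.9 and 2.35 against -0.24, 1.58 and 0.64, 1.63 ± 0.30, edgeR adjusted p = 0.0017). The others lay near Arpp21, Mvb12b, Zcchc12 and, with 2 peaks, Bcor. Both members called lower were in the receptor locus, at Trav15-2-dv6-2 (3, 3 and 2 reads with Treg, and not called without KO Treg-exposed replicate 1 or 3 or Tconv KO replicate 1) and Trdc (8, 9 and 2 reads with Treg), where the counts are too few for a reliable fold. Without KO Treg-exposed replicate 1 the calls were 2 higher and 0 lower, against 2.4% and 0.578% of all peaks, with a median of 0.02, and the Cnksr3 (0.90) and Gm20696 (0.99) peaks were below the fold threshold. Without Tconv KO replicate 3 the calls were 4 higher and 1 lower, against 3.85% and 1.75% of all peaks, with a median of -0.35. The median was 0.08 without Tconv KO replicate 2 and -0.27 without KO Treg-exposed replicate 3.

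The difference of the Treg effect between genotypes was tested as an interaction. The median over members was -1.19 on the log2 scale, against -0.04 over all peaks, and 18 of 260 were above 0. No member was called by edgeR, against 0.0014% of all peaks, and 35.4% of members (92) had an unadjusted p under 0.05, against 12.8% of all peaks. DESeq2 called 39 of 257 members lower, against 0.917% of all peaks. With only the 4 groups in the filter and the fit, 244 members were tested, with a median of -1.21 and 0 calls. Among single peaks the Adamts20 intron peak had -2.10 ± 0.45 (edgeR adjusted p = 0.23) and the Tet1 peak -1.73 ± 0.53 (edgeR adjusted p = 0.30). Comparisons of KO and WT and of Treg and no Treg share libraries with this interaction and with each other, so their values are not independent.

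**Figure D3:**
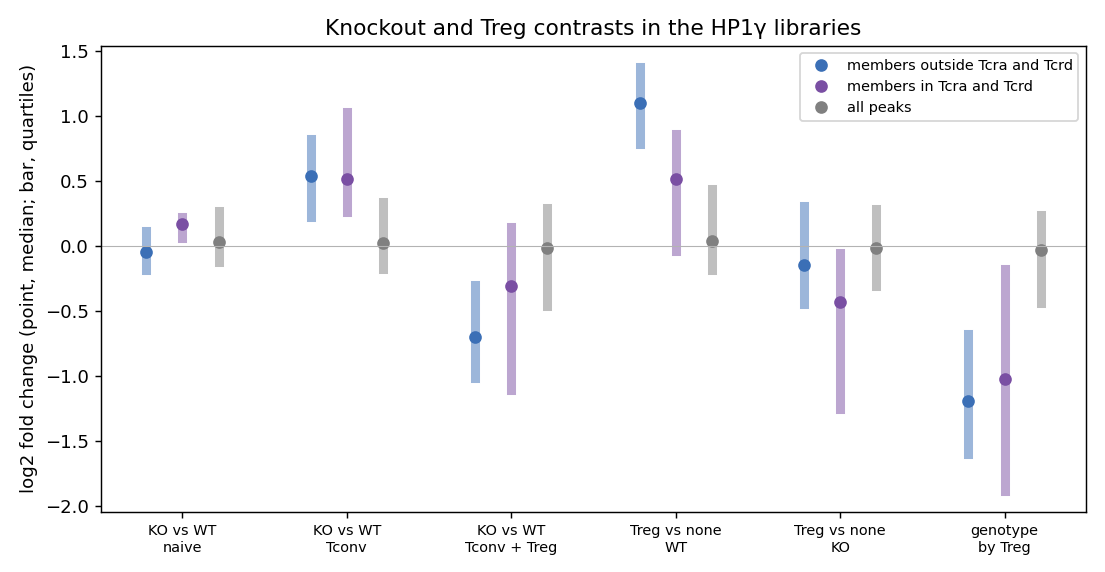
Median (points) and quartiles (bars) of the log2 fold change in 6 contrasts of the HP1γ libraries, for members outside the Tcra and Tcrd locus, members in it and all peaks. The medians of members outside the locus are 1.10 for Treg in WT and -0.15 for Treg in KO, and those of all peaks lie near 0.

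In naive cells the median of KO against WT was near 0. The median log2 fold change of KO against WT was -0.01, with quartiles of -0.17 and 0.13, and 1 member was called higher and 0 lower, against 0.133% and 0.00699% of all peaks. At an unadjusted p under 0.05 were 15.4% of members (40), against 8.98% of all peaks. KO and WT libraries did not overlap at 65 members in the lower direction, or 25%, against 14.8% of all peaks, and at 26 in the higher direction, or 10%, against 13.6%. The called member lay 44.6 kb from Fthl17a on the X chromosome, a gene of the ferritin heavy chain family, and was also the member nearest the selection threshold. It had log2 CPM of 2.2, 2.23 and 2.23 in KO and 1.14, 1.30 and 1.02 in WT (1.12 ± 0.17, edgeR adjusted p = 0.0019). Without naive KO replicate 3 it was not called, nor by DESeq2, and with offsets on abundance 1 other member was called lower, against 0.0769% of all peaks.

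In Tconv without Treg the median log2 fold change was 0.53, against 0.02 over all peaks, and 226 of 260 were above 0. Only 5 were called higher and 0 lower, against 1.69% and 1.66% of all peaks. With the filter and the fit on the 2 groups alone, 222 were tested, with a median of 0.50, and 1 was called higher, against 0.548% of all peaks, so that the Zfp2 and Trpc5os peaks below were not. The Tmem132c intron peak had log2 CPM of 2.07, 1.53 and 1.27 in KO and -0.60, -0.34 and -0.06 in WT (1.98 ± 0.35, edgeR adjusted p = 0.0029), and the start of Zfp2, a zinc finger gene, had 2.97, 1.70 and 2.00 against 1.40, 0.46 and 0.35 (1.47 ± 0.34, edgeR adjusted p = 0.015). The other called members lay near Trpc5os, Map3k13 and Adamts20. Without Tconv WT replicate 2 only 1 member was called, which was neither Zfp2 (1.31) nor Trpc5os (1.05), against 0.754% of all peaks higher and 0.745% lower. Without Tconv KO replicate 1 or 2 the number was 3, against 2.36% or 1.0% of all peaks higher and 2.49% or 1.16% lower. The median was 0.33 without Tconv KO replicate 2 and 0.74 without Tconv KO replicate 3. The Zfp2 (1.0) and Trpc5os (0.83) peaks were not called without Tconv KO replicate 1, nor Trpc5os (0.92) without Tconv WT replicate 3. With GC offsets 5 were called higher and 1 lower, against 1.4% and 2.08% of all peaks. The interaction of genotype with activation had a median of 0.56, with 0 members called by edgeR, against 0.014% of all peaks. Its median was 0.37 without Tconv KO replicate 2 and 0.76 without Tconv KO replicate 3. At an unadjusted p under 0.05 were 17.3% of members (45), against 9.51% of all peaks, and DESeq2 called 5 higher, against 0.362% of all peaks.

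In Treg-exposed Tconv the median of KO against WT was below 0. The median log2 fold change was -0.68, against -0.02 over all peaks, and 21 were called lower and 4 higher, against 5.38% and 6.48% of all peaks. So 8.08% of members were called lower, and 75 members had no overlap in that direction, against 20.5% of all peaks. With the replicate number as a block the calls were 22 lower and 4 higher (5.83% and 6.83% of all peaks), with GC offsets 12 lower and 5 higher (3.99% and 8.02%), and with offsets on abundance 13 lower and 6 higher (3.78% and 8.37%). With the filter and the fit on the 2 groups alone, 224 were tested and 5 were called lower and 2 higher (2.31% and 2.84% of all peaks), while DESeq2 called 45 lower and 6 higher (6.24% and 6.09% of all peaks) and edgeR's legacy dispersions 39 lower and 5 higher (5.92% and 4.8%). The weakest 10% of all peaks held 0.76, 0.39 and 0.62% of reads in KO Treg-exposed replicates 1 to 3, beside the WT shares given above, and its part in the result was not tested. The Tet1 peak, 6.1 kb from the start of this 5-methylcytosine dioxygenase gene, had log2 CPM of -1.28, -0.32 and -0.08 in KO and 0.75, 1.19 and 1.71 in WT (-1.65 ± 0.36, edgeR adjusted p = 0.0044). A Wwox intron peak had -1.12, 0.35 and 0.35 against 1.29, 1.52 and 2.21 (-1.59 ± 0.38, edgeR adjusted p = 0.0076), and the Adamts20 intron peak 0.09, 0.94 and 0.44 against 1.89, 1.42 and 2.50 (-1.27 ± 0.31, edgeR adjusted p = 0.0083). Rreb1 and Zfp704 had 2 members each among those called lower, and Syne1, Slc4a4, Gucy1a1 and Satb1 had 1 each.

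The 4 members higher in KO with Treg went the other way. The Etv5 peak had 2.57, 1.9 and 2.35 log2 CPM in KO and 1.09, 0.32 and 1.38 in WT (1.48 ± 0.31, edgeR adjusted p = 0.0036). The Arpp21 intron peak had 3.36, 3.24 and 2.88 against 1.85, 1.65 and 2.76 (1.29 ± 0.29, edgeR adjusted p = 0.0049), and the start of Zcchc12, a transcriptional coactivator gene, 1.15, 0.22 and 0.56 against -0.41, -0.58 and -0.61 (1.36 ± 0.38, edgeR adjusted p = 0.019). The fourth lay 184 kb from Bcor. Without KO Treg-exposed replicate 1 the counts were 1 lower and 2 higher, against 1.83% and 3.37% of all peaks, with a median of -0.45, and the Wwox (-1.17), Adamts20 (-1.05) and Zcchc12 (0.99) peaks were not called. Without WT Treg-exposed replicate 2 they were 6 lower and 2 higher (1.86% and 3.35% of all peaks), without a call at Zcchc12 (1.31). Without WT Treg-exposed replicate 3 they were 8 lower and 5 higher (4.44% and 6.49%), and without WT Treg-exposed replicate 1 they were 34 lower and 3 higher (7.18% and 5.8%). With the filter and the fit on the 2 groups alone the Zcchc12 peak was not called.

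**Figure D4:**
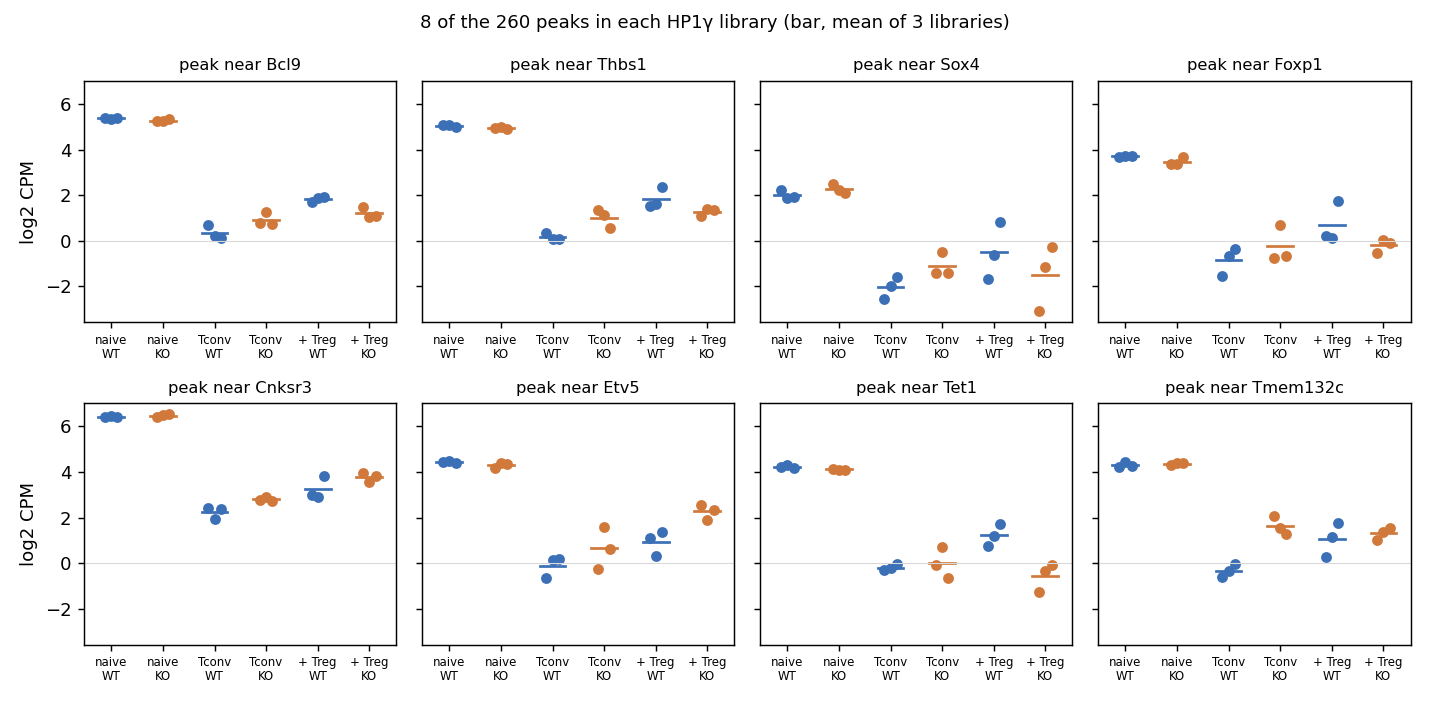
Log2 CPM of 8 members in each of the 18 HP1γ libraries, with WT in blue, KO in orange and a bar at the mean of 3 libraries. Naive libraries lie above all others in each panel, and with Treg the KO libraries lie below WT in the Tet1 panel and above WT in the Etv5 panel.

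Other differences among the HP1α libraries are given without a test, since each uses libraries of the rule. HP1α KO and WT naive cells differed by a median of -0.02 on the log2 scale, and HP1α KO and WT Tconv by -0.10. HP1α WT Treg-exposed cells were higher than Tconv by a median of 1.30, against 0.08 over all peaks, in 3 libraries of 1.49 to 12.7 M reads, and by 0.93 without the library the study left out. Members took 0.0692 to 0.149% of reads in the 3 libraries and 0.0221 to 0.0591% in HP1α WT Tconv.

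Motif shares in the central 200 bases differed between the members and the peaks higher in Tconv. The ETS motif CAGGAAG was in 80 members (30.8%), against 15.5% of all peaks and 13.8% of the 6651 peaks more than 3 higher in HP1α WT Tconv. The TCF and LEF motif ATCAAAG was in 24 members (9.23%), against 4.06% and 3.41%. The AP-1 motif TGANTCA was in 11 members (4.23%), against 9.50% and 19.3%, and the CTCF motif CCANNAG followed by NNGGC in 3 (1.15%), against 6.84% and 1.19%. The RUNX motif TGTGGT was in 72 (27.7%), against 22.5% and 32.3%. The KLF motif GGGTGTG (6.54% of members and 6.20% of all peaks), the GATA motif AGATAA (9.23% and 9.17%) and the E-box CAGCTG (13.5% and 12%) had near-equal shares, and the FOXO motif TGTTTAC (4.62% and 2.87%) and the PU.1 motif GAGGAA followed by GT (5.0% and 3.24%) somewhat unequal ones. Away from TSSs, 31.6% of 212 members held the ETS motif, against 17.1% of 49952 peaks, and 10.4% the TCF and LEF motif, against 4.75%. In the receptor locus 31.2% of members held the ETS and 3.12% the TCF and LEF motif. All motifs were searched on both strands, PU.1 and ETS matches can overlap, and a match is no evidence of binding.

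**Figure D5:**
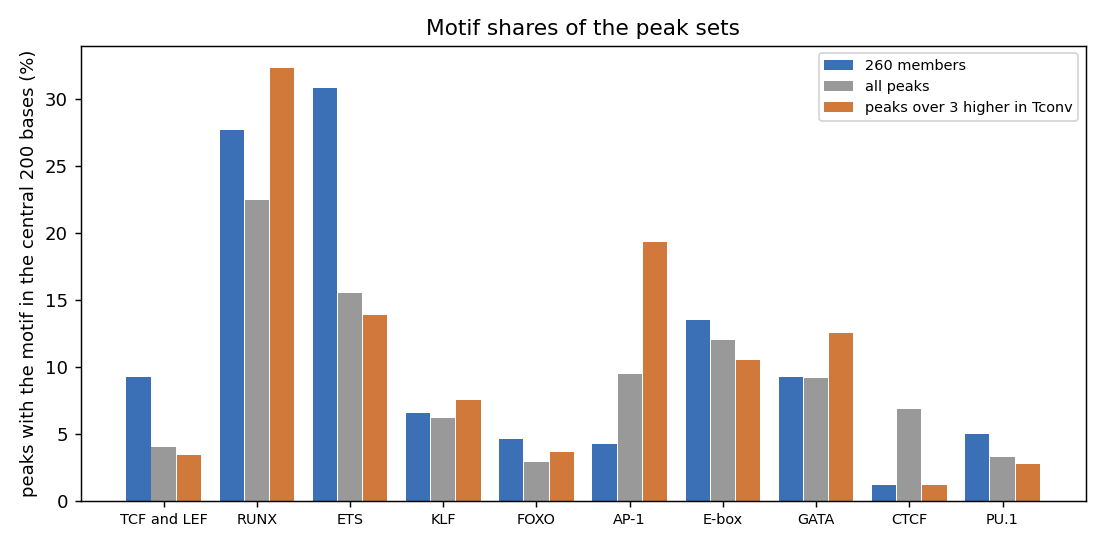
Share of peaks in percent with each motif in the central 200 bases, for the 260 members, all peaks and the 6651 peaks more than 3 higher in HP1α WT Tconv. The ETS bar is 30.8% for members and 13.8% for the peaks higher in Tconv, and the AP-1 bar 4.23% and 19.3%.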

How the data were processed

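ATAC-seq counts per consensus peak were used as the authors deposited them, as whole-number counts with no normalization. Per the study's methods, reads were trimmed with Trim Galore 0.6.7, aligned to GRCm39, and counted with featureCounts 2.0.3 over peaks called with HMMRATAC in each sample and merged. Of 71512 intervals, 3 had no width. Groups came from the labels, and 0 per-sample columns were unused.

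The members, gene lists and motifs were chosen with earlier results of these data known. HP1γ (18 libraries) and HP1α (15, without the 3 left out by the study) were fitted apart with edgeR 4.0.16 (R 4.3.3), filterByExpr, TMM and the quasi-likelihood F test, two-sided, with Benjamini-Hochberg adjustment over all peaks. Biological coefficients of variation were 22.2% and 26.6%. Genes are the nearest protein-coding TSS in GENCODE vM39, or the nearest segment in the Tcra and Tcrd locus. Named peaks were the 10 with the lowest difference, those of the 10 genes with most members and of listed genes, the 2 on each side of the threshold, and per comparison the 3 called peaks of smallest adjusted p in each direction whose groups did not overlap. Other peaks (Syne1, Rreb1, Mvb12b, Map3k13, Trav20, Ltbp1 and the rest of the called peaks) were named after their values were seen. The test was checked on simulated data.

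Same-numbered replicates deviated together (r of 0.20 to 0.29 for WT with and without Treg, 0.15 to 0.32 for KO and WT with Treg, over peaks). Elsewhere at least 1 of the 3 pairs had an r of at most 0.08, with 0.54, 0.08 and 0.25 for KO and WT Tconv. Alternatives were library size alone, no filter, DESeq2 1.42.0, loess offsets (span 0.3) on abundance or GC, only the groups compared, the block, depth, other member rules and leaving out each library. Added after seeing the data were edgeR's legacy dispersions, members outside the locus and autosomal members. Counts per library limit the precision.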

Additional observations from a re-analysis of the deposited data

Results flagged for a closer look

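The 3 HP1α Treg-exposed libraries that are in no test had a larger share of reads in the members than any HP1α Tconv library without Treg. In WT Tconv, which took part in choosing the members, it was at most 0.0591%, and in HP1α KO Tconv, which did not, it was 0.0250 to 0.0649%. The share was 0.149% in WT replicate 3 (3.2 M reads in peaks), 0.136% in KO replicate 2 (7.12 M) and 0.131% in KO replicate 3 (5.73 M). The kept HP1α Treg-exposed libraries had 0.0692 and 0.119% in WT and 0.0434% in KO, and naive libraries 0.361 to 0.440%. The share of the weakest 10% of peaks was also larger in the 3 libraries, at 1.21 to 1.46%, and its part in the values was not tested.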

How the results depend on the processing

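The fall from naive to Tconv in HP1γ WT, HP1γ KO and HP1α KO cells kept its direction under each alternative run. At least 98.1% of the members tested were called, though their number moved with the rule (84 to 830), and 1 of 830 was called higher in HP1γ KO. Few reads per member in Tconv limit the other comparisons, and the causes of the changes below were not tested. For Treg in WT cells, 0.769% of members were called (2). Shares of all peaks called under the same fit, in either direction, stand in parentheses, and that one was 0.137%. The share was 38.5% with DESeq2 (3.26%), 16.9% with legacy edgeR dispersions (0.959%), 8.85% with offsets on abundance (1.04%), 3.85% with library size alone (0.281%), 0.385% with GC offsets (0.338%), 4.62% with the replicate block (0.729%), 2.31% with the block and GC offsets (1.08%), and 0 with depth as a covariate (0.0014%), with only the groups compared (0 of all peaks, 234 members tested) or among the 84 members below -3.5. For Treg in KO cells, 3.85% were called (8.15%), and 0.442% with only the groups compared (0.856%). For KO in naive cells, 0.385% were called (0.14%), 0.769% with offsets on abundance (0.253%), and 0 with DESeq2 (3.27%), with legacy dispersions (0.583%), below -3.5 or on the autosomes. For KO in Tconv, 1.92% were called (3.35%), 5.77% with DESeq2 (3.44%), 3.08% with legacy dispersions (1.81%), 0.450% with only the groups compared (0.651%) and 0 below -3.5. For KO with Treg, 9.62% were called (11.9%), 19.6% with DESeq2 (12.3%), 16.9% with legacy dispersions (10.7%) and 3.13% with only the groups compared (5.15%). No member was called in the interactions, and DESeq2 called 1.92% for activation (1.93%) and 15.2% for Treg (1.14%). Leaving out each library gave 0 to 5.38% (Treg in WT, all peaks 0.0014 to 1.21%), 0.769 to 4.23% (Treg in KO, 2.98 to 13.1%), 0 to 0.385% (KO in naive, 0.0783 to 0.119%), 0.385 to 2.31% (KO in Tconv, 1.34 to 5.3%), 1.15 to 14.2% (KO with Treg, 5.2 to 16.2%, where without KO Treg-exposed replicate 1 more were higher than lower) and 0 to 0.385% (interaction with Treg, 0 to 0.399%). The replicate block changed no other count by over 1.5 times. In the comparisons other than Treg in WT and KO with Treg, at least 1 same-numbered pair had an r of at most 0.08. The rule gave 502 members with TMM-scaled sizes, 830 below -2.5 and 84 below -3.5. In 300 bases 6.54% of members held the AP-1 and 15% the GATA motif, against 13% and 13.6% of all peaks. At a protein-coding TSS lay 14 members (5.38%, all peaks 21%). Of 399 alternatives for the named peaks, 364 kept the call, 35 lost it and 0 reversed.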
